A study of Rattus norvegicus with 12 samples.

Results

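The genes described here are the 5 muscarinic acetylcholine receptors (Chrm1, Chrm2, Chrm3, Chrm4 and Chrm5) and 5 further genes. These further genes make acetylcholine (Chat), take up choline (Slc5a7), break acetylcholine down (Ache and Bche) or modulate nicotinic receptors (Lynx1). All 10 genes were chosen by gene symbol, and all, of 26214 distinct gene names, were on the array, with 11 of its 30367 gene probes. Chrm2 had 2 probes and each of the others had 1. RNA came from neuron-enriched cultures of cerebella of 1-day-old Sprague-Dawley rats, and was measured on Agilent 1-colour arrays, in which each 60-base probe reports the brightness of Cy3-labelled RNA bound to it. The 6 ACE cultures were exposed to 1 µM acetamiprid, a neonicotinoid insecticide that acts on nicotinic acetylcholine receptors, for 14 days up to 16 days in vitro. The 6 control cultures received the vehicle alone, and 0.001% DMSO was present in both groups. Both groups were kept in medium with 1% fetal bovine serum for the first 8 days and without serum thereafter, and the medium was partly renewed every 2 days from day 2. Each of the 6 replicate numbers stands for a separate culture experiment from 1 litter, which gave 1 control and 1 ACE culture, so that the groups were compared within 6 pairs.

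Acetylcholine is made from choline and acetyl-CoA by choline acetyltransferase (Chat), loaded into synaptic vesicles by the vesicular transporter Slc18a3, and cleaved after release by acetylcholinesterase (Ache) and, less specifically, by butyrylcholinesterase (Bche). The choline set free is taken back into cholinergic terminals by the high-affinity transporter Slc5a7. Muscarinic receptors are G protein-coupled: the odd-numbered members act mainly through the Gq class and phospholipase C, and Chrm2 and Chrm4 through the Gi class. Lynx1 is a membrane-anchored Ly6 protein that binds nicotinic receptors and dampens their response. In the cerebellum, cholinergic fibres arrive mainly from the brainstem, which was not part of these cultures.

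Each slide held 1 pair, with the control array always in the first place and the ACE array in the third, so that exposure and place on the slide cannot be told apart. The 75th percentile of the processed signal ranged from 1803 to 4384 per array, 75.4% to 91.0% of gene spots were well above background, and none was saturated. Of the 30367 probes, 23796 passed a filter on low signal and were tested. None had an adjusted p under 0.05 in limma, with the Benjamini-Hochberg adjustment over all tested probes (lowest adjusted p 0.141), while 3956 (16.6%) had an unadjusted p under 0.05, of which 41.5% were higher in ACE. That share was 19.1% when the arrays were scaled by the 75th percentile in place of quantiles and 51.5% in the values deposited by the authors. Each measured gene of 8 marker lists for neurons, glia and meninges was well above background on at least 1 array, and the mean of the neuronal marker list was higher in ACE in 5 of 6 pairs, by 0.11 on the log2 scale. By cell type the lists went different ways: astrocyte markers were lower in ACE in 6 of 6 pairs (mean difference -0.07), Purkinje cell markers in 5 (-0.07) and granule cell markers in 4 (mean 0.03), while interneuron markers were higher in 4 (0.09). Markers of skeletal muscle, a tissue outside the brain, were lower in ACE by 0.93 on average, from a difference of -3.34 in pair 2 to 0.08 in pair 5. In such bulk RNA, fewer cells of a type and less RNA per cell cannot be told apart.

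The probes of Chat and of its neighbour Slc18a3, and those of the cholinesterases, are shown because the comparisons below rest on 1 probe for each of these genes. Positions are those of the array annotation, on the rat build rn4, and sequences are given 5′ to 3′. The Chat probe lies at chr16:7913067-7913126 on the minus strand, and the Slc18a3 probe at chr16:7970157-7970216 on the same strand. In the RefSeq annotation of a later build, GRCr8, the whole of Slc18a3 lies inside Chat, an arrangement known as the cholinergic gene locus.
Chat: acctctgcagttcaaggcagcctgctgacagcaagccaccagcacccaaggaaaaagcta
Slc18a3: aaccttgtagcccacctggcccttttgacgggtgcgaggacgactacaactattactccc
The Bche probe lies at chr2:164329618-164329677 on the minus strand, and the annotation gives no position for the Ache probe. The 2 enzymes are homologous, and their probes fall on related stretches. Capitals mark the 27 bases that are identical among the 43 aligned in the best alignment without gaps (62.8%).
Ache: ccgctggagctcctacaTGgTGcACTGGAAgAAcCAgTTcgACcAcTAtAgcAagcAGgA
Bche: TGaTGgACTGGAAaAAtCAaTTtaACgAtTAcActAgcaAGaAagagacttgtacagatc

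Of the 11 probes, 7 passed the filter on low signal, 1 for each of 7 genes, and Chrm1, Chrm5 and Slc5a7 were not tested. None of the 7 had an adjusted p under 0.05, where the share over all tested probes was 0%. Without adjustment, 2 of the 7 had a p under 0.05, beside 16.6% of all tested probes: Chrm3 was higher in ACE (6.9% of all tested probes were higher at this threshold) and Chat was lower (9.73%). The median difference of the 7 probes was -0.07 on the log2 scale, and that of all tested probes was -0.0050. None of the 7 reached a mean difference of 1.5-fold, which 1.72% of tested probes did. With 7 probes, these counts do not set the genes apart from the array as a whole.

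**Figure D1:**
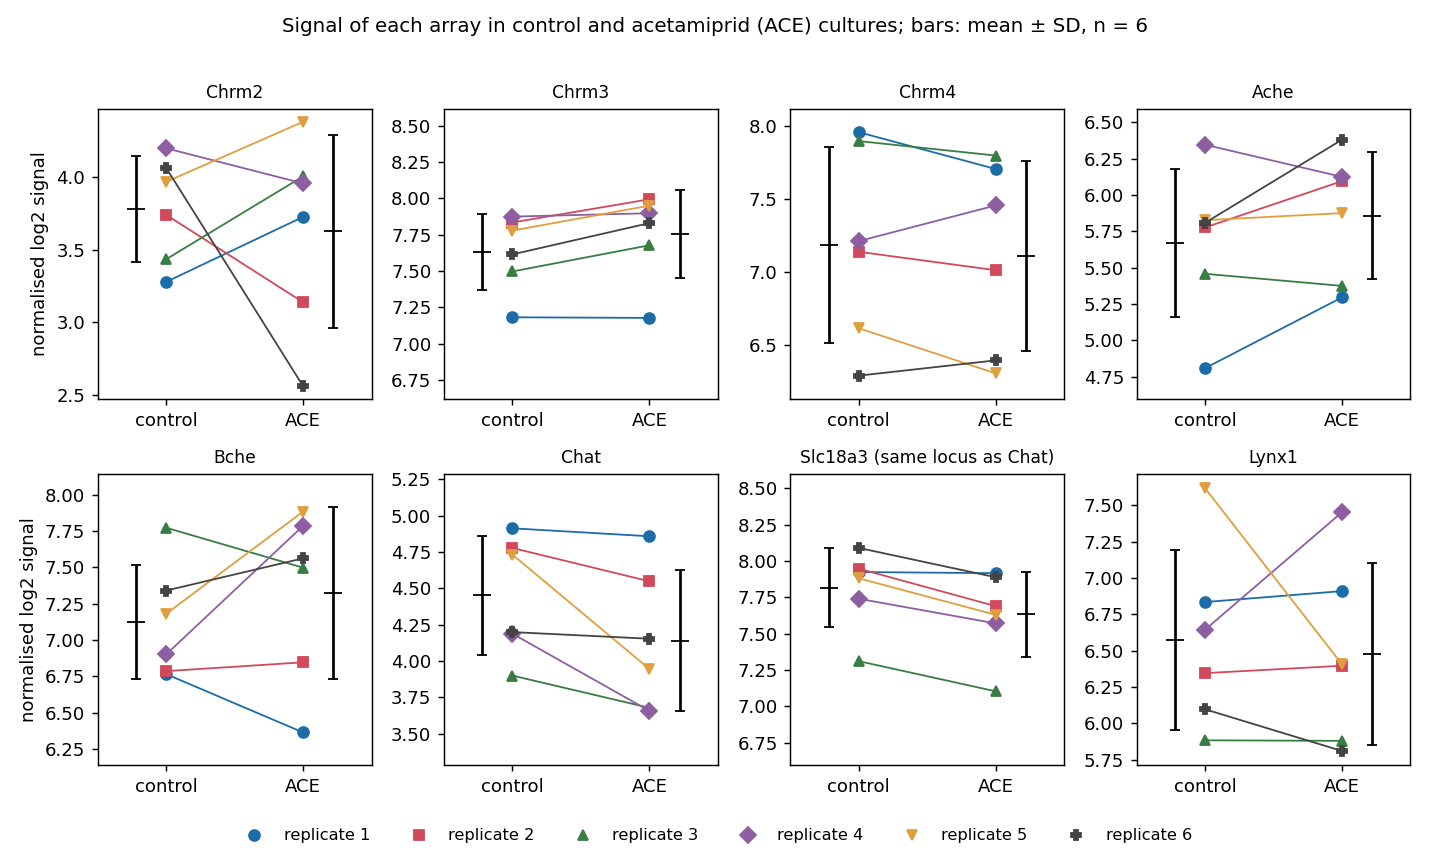
Normalised log2 signal (y axis, a separate range in each panel) of the 7 member probes tested and of Slc18a3 in control and ACE cultures (x axis). Each line joins the 2 arrays of 1 replicate number, and the bars give the mean ± SD of 6 arrays. Chat and Slc18a3 lay lower in ACE in all 6 pairs, Chrm3 lay higher in 5 of 6, and the groups overlapped in every panel.

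Synthesis and storage of acetylcholine were represented by Chat and Slc18a3, and both gave a lower signal in ACE in every pair. The signal of Chat, the enzyme that makes acetylcholine, was 3.90 at its lowest, 4.47 at the median and 4.91 at its highest in the control arrays, against 3.66, 4.05 and 4.86 in the ACE arrays, on the normalised log2 scale. The groups overlapped over most of their range, and the means of the 6 pairs spread more (SD 0.42) than the differences within pairs (SD 0.29). Within pairs, the difference ACE minus control was -0.05 in pair 1, -0.23 in pair 2, -0.22 in pair 3, -0.53 in pair 4, -0.79 in pair 5 and -0.05 in pair 6. A direction lower in all 6 pairs was seen in 6.86% of all tested probes, and one higher in all 6 pairs, which no tested member showed, in 4.72%. The mean difference was -0.31 ± 0.11 (SE, n = 6 pairs), or 0.806-fold with a 95% interval of 0.675 to 0.962 (limma adjusted p = 0.238). Chat was dim, and its signal stood well above background on 3 control and 2 ACE arrays. An exact signed-rank test (two-sided) gave p = 0.03125, the smallest that 6 pairs allow. With normexp background correction the difference was -0.06, and without replicate 4 it was -0.27, and in both cases Chat was no longer among the unadjusted limma calls. In the order of the pairs, the skeletal muscle markers differed by -0.75, -3.34, -0.18, -0.01, 0.08 and -1.40, and the neuronal markers by 0.14, 0.19, 0.11, 0.12, -0.08 and 0.17. Their part in the Chat difference was not tested.

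Slc18a3 packs acetylcholine into vesicles, and its probe was well above background on all 12 arrays. It lay at 7.31, 7.90 and 8.09 (lowest, median, highest) in control and at 7.10, 7.66 and 7.92 in ACE. The difference was between -0.17 and -0.26 in 5 pairs and -0.0082 in pair 1, in which Chat also differed little. Its mean was -0.18 ± 0.04 (SE, n = 6 pairs), or 0.881-fold with an interval of 0.826 to 0.940 (limma adjusted p = 0.147). The widest pair differed between the 2 genes, being pair 5 for Chat and pair 2 for Slc18a3. With normexp background correction the difference in Slc18a3 was -0.12.

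Slc5a7, the choline transporter of cholinergic terminals, was well above background on only 3 arrays. Its signal was 7.08 in control replicate 3, 5.03 in ACE replicate 2 and 4.28 in control replicate 5. A further array, ACE replicate 6, gave 4.47 without being well above background, and the other 8 arrays lay between 1.29 and 1.71. The high arrays came from both groups, and no replicate had a high array in both groups. The mean brightness of the single spot was 245 on the brightest array, over a local background of 23.5. A difference between groups was not detectable at this signal, and no value is given for it.

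**Figure D2:**
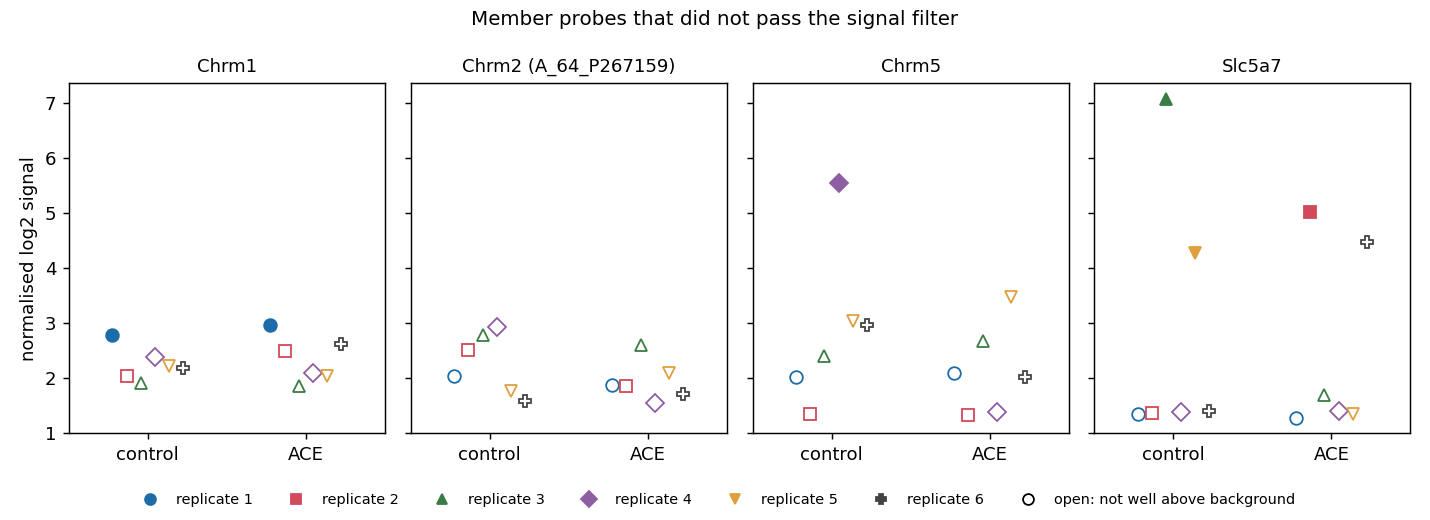
Normalised log2 signal (y axis) of the 4 member probes that did not pass the filter, by group (x axis) and replicate (symbols). Filled symbols were well above background and open ones were not. Filled symbols appear on 2 arrays for Chrm1, on none for this Chrm2 probe, on 1 for Chrm5 and on 3 for Slc5a7.

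The other genes of choline supply and acetylcholine storage were looked at as a list of 12, Slc18a3 among them, of which 11 genes and 14 probes were tested. Without adjustment 1 probe was higher and 2 were lower in ACE (21.4%, against 16.6% of all tested probes), none passed after adjustment, and the median difference was -0.019. Beside Slc18a3, the lower probe was that of Slc44a4, a choline transporter-like protein (-0.12 ± 0.03, SE, lower in 6 of 6 pairs, limma adjusted p = 0.180). With normexp background correction its difference was -0.05, and it was no longer among the unadjusted calls. The higher probe was 1 of 2 for Pcyt1a, an enzyme of phosphatidylcholine synthesis, and it was named after its values were seen because 1 pair differed from the other 5. It differed by 0.13 ± 0.04 (SE, limma adjusted p = 0.234), while the other Pcyt1a probe differed by -0.02. With scaling by the 75th percentile the difference was 0.09, and it was an unadjusted call in 10 of 16 alternatives, and not without replicate 4, 5 or 6.

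Whether these cultures held cholinergic neurons was looked at with genes of cholinergic neuron identity. Slc10a4, a vesicle protein of cholinergic and monoaminergic neurons, and Ngfr, the low-affinity neurotrophin receptor, were well above background on all 12 arrays. Of the transcription factors, Isl1 was well above background on none of the arrays, Lhx8 on 3 control arrays, Mnx1 on 2 control arrays and 1 ACE array, and Gbx1 on 2 of each group. Slc10a4 differed by -0.08 (limma adjusted p = 0.429) and Ngfr by 0.09 (limma adjusted p = 0.399), and neither was among the unadjusted calls.

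For the enzymes that break acetylcholine down, no difference beyond the spread of the pairs was found. Ache, which ends cholinergic transmission at synapses, lay at 4.81, 5.79 and 6.35 (lowest, median, highest) in control and at 5.29, 5.98 and 6.38 in ACE. It was higher in ACE in 4 of 6 pairs, by 0.57 in pair 6 and 0.49 in pair 1, and lower in pair 4 by a difference of -0.22. The mean difference was 0.19 ± 0.12 (SE, n = 6 pairs), or 1.14-fold with an interval of 0.937 to 1.38 (limma adjusted p = 0.454). With scaling by the 75th percentile it was 0.07, with normexp background correction 0.03, and without replicate 6 it was 0.11.

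Bche, the cholinesterase of wider substrate range that is also made by glia, lay at 6.76, 7.04 and 7.77 in control and at 6.36, 7.53 and 7.88 in ACE (lowest, median, highest). The pairs went both ways, from -0.40 in pair 1 and -0.27 in pair 3 to 0.70 in pair 5 and 0.88 in pair 4. Their mean was 0.20 ± 0.19 (SE), or 1.15-fold with an interval of 0.842 to 1.56 (limma adjusted p = 0.610). The SD of the 6 pair differences was 0.52, against a median of 0.13 over all tested probes. Replicates 4, 5 and 6 were scanned together, and within them Bche was higher in ACE in every pair, by 0.60 (limma adjusted p = 0.341). Without replicate 4 the difference over the remaining pairs was 0.06.

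Prima1 and Colq anchor cholinesterases at membranes and in the synaptic matrix, respectively. All 4 probes of the 2 genes had a mean difference below 0, with a median of -0.10, and 1 had an unadjusted p under 0.05 and was lower in ACE, as were 9.73% of all tested probes. That probe, 1 of 2 for Prima1, was lower in ACE in 6 of 6 pairs by a difference of -0.06 to -0.15, with a mean of -0.11 ± 0.02 (SE, limma adjusted p = 0.145). It was no longer among the unadjusted calls with replicate as a random effect. The other Prima1 probe differed by -0.0031 and was higher in 4 of 6 pairs, so that the probes of this gene did not give the same result. The Colq probes differed by -0.09 (limma adjusted p = 0.375) and -0.17 (limma adjusted p = 0.516).

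Among the muscarinic receptors, Chrm3 and Chrm4 were well above background on all 12 arrays, Chrm2 was near background, and Chrm1 and Chrm5 were at background on nearly all arrays. Chrm3, a Gq-coupled receptor with its probe at chr17:71218386-71218445, lay at 7.18, 7.70 and 7.87 (lowest, median, highest) in control and at 7.18, 7.86 and 7.99 in ACE. The groups overlapped, and replicate 1 gave the lowest array of both. Chrm3 differed by -0.0043 in pair 1, by 0.02 in pair 4 and by 0.16 to 0.22 in the other 4 pairs. The mean difference was 0.12 ± 0.04 (SE, n = 6 pairs), or 1.09-fold with an interval of 1.02 to 1.16 (limma adjusted p = 0.214). The exact signed-rank test gave p = 0.0625. With scaling by the 75th percentile the difference was 0.08, and without replicate 6 it was 0.11, and in both cases Chrm3 was no longer among the unadjusted limma calls. The mean of the neuronal markers also differed by 0.11, and both it and Chrm3 were higher in ACE in pairs 2, 3, 4 and 6. In the other pairs they went opposite ways. The markers differed by 0.14 in pair 1 and -0.08 in pair 5, and Chrm3 by -0.0043 and 0.17. The part of neuronal RNA content in the Chrm3 difference was not tested.

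Chrm4, a Gi-coupled receptor with its probe at chr3:76309651-76309710, lay at 6.29, 7.17 and 7.96 in control and at 6.30, 7.23 and 7.80 in ACE (lowest, median, highest). It varied more between replicates than within pairs: the means of the 6 pairs had an SD of 0.65, and the differences within pairs an SD of 0.21. Replicates 1 and 3 were high in both groups, and replicates 5 and 6 were low in both. The difference was -0.07 ± 0.08 (SE), or 0.951-fold with an interval of 0.834 to 1.08 (limma adjusted p = 0.661), and 4 of 6 pairs were lower in ACE. Without replicate 4 it was -0.14, and without replicate 5 it was -0.03.

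Chrm2, the other Gi-coupled receptor, had 2 probes, at chr4:63911321-63911380 and chr4:63912676-63912735, and a later annotation on the arrays of replicate 3 puts both at other positions of the same chromosome. The probe at the first position was well above background on none of the arrays, so that no fold is given. The probe at the second position was so on 2 control and 3 ACE arrays, and passed the filter. It is printed here as the probe on which the value for Chrm2 rests.
Chrm2: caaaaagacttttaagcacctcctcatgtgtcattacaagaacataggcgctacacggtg
It lay between 3.28 and 4.20 in control and between 2.56 and 4.38 in ACE, with medians of 3.85 and 3.84. The pairs split evenly, 3 higher and 3 lower, from -1.50 in pair 6 to 0.57 in pair 3. The difference was -0.15 ± 0.29 (SE), or 0.900-fold with an interval of 0.556 to 1.46 (limma adjusted p = 0.809). Without replicate 6 it was 0.12.

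Chrm1, the main Gq-coupled muscarinic receptor of the forebrain, was well above background on 1 control and 1 ACE array, both of replicate 1. Its signal ranged from 1.92 to 2.79 in control and from 1.85 to 2.96 in ACE. Chrm5, the Gq-coupled receptor known from midbrain dopamine neurons, was well above background on 1 array, control replicate 4, with a signal of 5.56, while the other 11 arrays lay between 1.33 and 3.48. Since it was well above background on none of the ACE arrays, no difference is given. For both genes a difference was not detectable at this signal, which does not show that the RNA was absent.

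The genes that carry the muscarinic signal were looked at as a list of 29 genes, from G protein subunits and phospholipases to potassium channels, RGS proteins, receptor kinases and arrestins. Of its 36 tested probes 2 were higher and none was lower in ACE without adjustment (5.56%, against 16.6% of all tested probes), and the median difference was 0.03. Both encode receptor kinases, which phosphorylate active G protein-coupled receptors, and both were higher in 6 of 6 pairs. Adrbk2, now named Grk3, differed by 0.31 ± 0.06 (SE, limma adjusted p = 0.146), or 1.24-fold. Grk5 differed by 0.13 ± 0.04 (SE, limma adjusted p = 0.198). The other receptor kinases of the list were not called, with differences of 0.04 for Adrbk1 (limma adjusted p = 0.619) and of 0.0032 and -0.13 for the 2 probes of Grk6 (limma adjusted p = 0.974 and adjusted p = 0.508). With scaling by the 75th percentile the Adrbk2 difference was 0.17 and no longer an unadjusted call, and that of Grk5 was 0.08. With normexp background correction the Adrbk2 difference was 0.11. Gnaq, which couples to Chrm3, differed by -0.02 (limma adjusted p = 0.901). The 2 tested probes of Kcnq3, a subunit of the M-current channel that muscarinic receptors close, differed by 0.06 and 0.04 (limma adjusted p = 0.536 and adjusted p = 0.549).

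**Figure D3:**
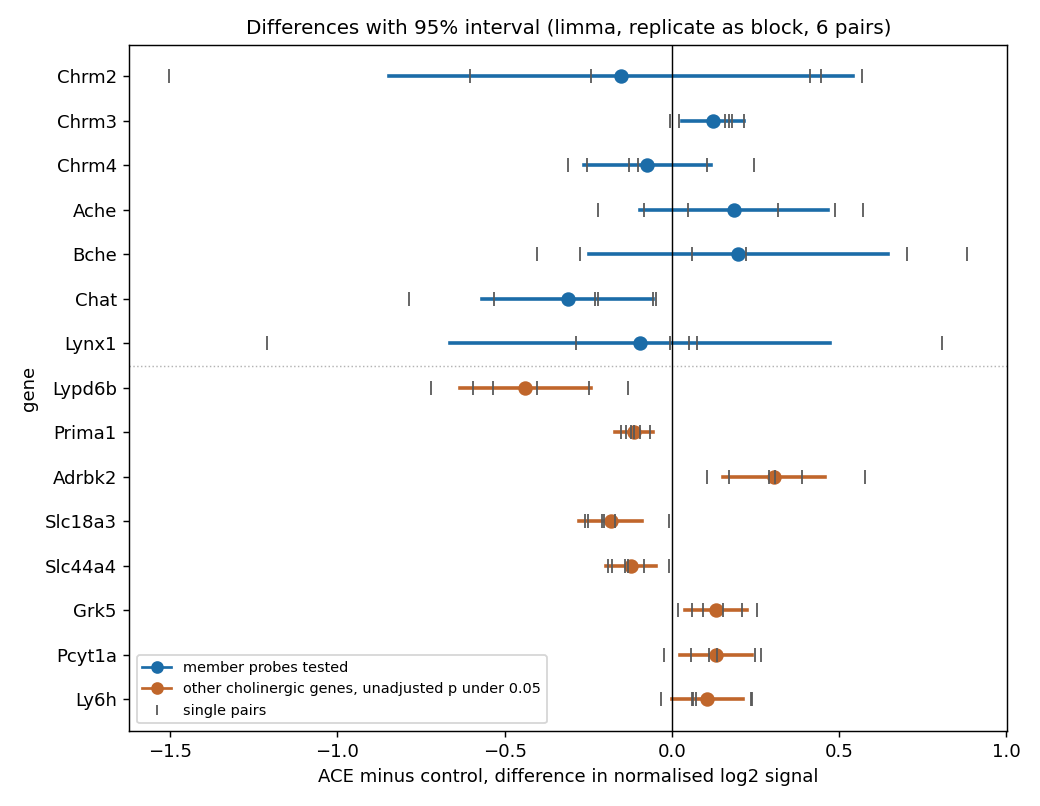
Difference in normalised log2 signal, ACE minus control (x axis), for the 7 member probes tested (blue) and for the 8 probes of related genes with an unadjusted p under 0.05 (orange), by gene (y axis). Points are the limma estimates over 6 pairs, bars their 95% intervals, and ticks the single pairs. Among the members, the intervals of Chrm3 and Chat leave out 0, and those of Chrm2, Bche and Lynx1 are the widest.

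Lynx1, the Ly6 protein that restrains nicotinic receptors, has its probe at chr7:112865916-112865975 on the minus strand. It lay at 5.88, 6.49 and 7.62 (lowest, median, highest) in control and at 5.81, 6.40 and 7.45 in ACE. The highest control array was replicate 5 and the highest ACE array replicate 4, and these pairs differed in opposite directions, by -1.21 and 0.81. The other 4 pairs differed by -0.29 to 0.08. The mean difference was -0.09 ± 0.24 (SE), or 0.936-fold with an interval of 0.632 to 1.39 (limma adjusted p = 0.860), and without replicate 5 it was 0.13. The pair differences had an SD of 0.66, and the interval covers changes in both directions.

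The relatives of Lynx1 and the chaperones of nicotinic receptors formed a list of 12 genes, of which 10 were on the array and 13 probes were tested. Without adjustment 1 probe was higher and 1 lower in ACE (15.4%, against 16.6% of all tested probes), and the median difference was -0.03. The lower probe was 1 of 2 for Lypd6b, a Ly6 protein that modulates nicotinic receptors. Its signal ranged from 5.17 to 5.81 in control and from 4.58 to 5.68 in ACE, and its difference of -0.44 ± 0.08 (SE, lower in 6 of 6 pairs, limma adjusted p = 0.143) was the widest among the tested probes of the related lists. The other Lypd6b probe differed by 0.09 (limma adjusted p = 0.599), and with normexp background correction the first differed by -0.15. For Lypd6, its close relative, the brighter of 2 probes was lower in 6 of 6 pairs, by -0.26 ± 0.11 (SE, limma adjusted p = 0.308). This probe was not an unadjusted call, and its pair differences ran from -0.03 in pair 3 to -0.83 in pair 5. The dimmer Lypd6 probe differed by -0.12 (limma adjusted p = 0.853). Lypd6 was named after its values were seen, and its probes carry this symbol only in the later annotation of the replicate 3 arrays. The higher probe was 1 of 2 for Ly6h, a Ly6 protein of neurons, likewise named after its values were seen, at 0.11 ± 0.04 (SE, limma adjusted p = 0.296), with the other at 0.03. It was an unadjusted call in 5 of 16 alternatives. The chaperones Ric3 and Tmem35 differed by 0.28 (limma adjusted p = 0.393) and 0.03 (limma adjusted p = 0.810).

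Over all 5 related lists, 71 probes of 55 genes were tested, 4 were higher and 4 lower in ACE without adjustment (11.3%, against 16.6% of all tested probes), none passed after adjustment, and the median difference was 0.0032.

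For each of the 5 members well above background on all arrays, the genes whose signal followed it most closely over the 12 arrays were listed by Pearson correlation. These values describe the arrays, in which both cultures of a replicate share a litter and a slide. Chrm3 was followed by Chga (r = 0.963), a protein of dense-core granules, Rab6b (r = 0.959) and Fgf9 (r = 0.957). Chrm4 was followed by Emc3 (r = 0.985), Prdx6 (r = 0.980) and Mut (r = 0.979), a mitochondrial enzyme. Ache was followed by Nlgn3 (r = 0.929), a synaptic adhesion protein of the same fold family as the cholinesterases, Synpr (r = 0.927) and Ada (r = 0.919). Bche was followed by Atg13 (r = 0.929), Foxp1 (r = 0.922) and Usp42 (r = 0.919), and Lynx1 by Ms4a10 (r = 0.936), Nek4 (r = 0.880) and Srd5a2 (r = 0.865). None of these 15 genes was a member or belonged to another member's set. Synpr was well above background on 6 arrays, Ms4a10 on 9, Fgf9 on 11 and the rest on all 12.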

How the data were processed

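Per the file headers, the authors extracted the array images in Agilent Feature Extraction, in version 11.0.1.1 on 2 arrays and 11.5.1.1 on 10, and the deposited files hold processed signal intensity, background-corrected by that software. A second deposited file, a log2 table that was quantile normalised and centred per probe, correlated with the values used here at 0.997 to 0.999 and served as an alternative. Here, log2 processed intensities of gene spots were quantile normalised, outlier spots left out and spots of a probe averaged. Probes were tested if above the 20th percentile of the array on at least 7 of 12 arrays and measured in at least 4 pairs. The percentile was first taken over spots, and was changed to probe averages after results were seen, which brought 1 Chrm2 probe into the test. The test was limma 3.58.1 (R 4.3.3), two-sided, with the replicate number as a block and Benjamini-Hochberg adjustment over all tested probes. The pairing comes from the study's methods, in which the cultures of an experiment shared 1 lot of cells. Deviations from the group means correlated at 0.449 to 0.912 within a number and at -0.439 to 0.390 between numbers. The arrays also carry 4 scan batches, of which 1 holds 3 pairs. Members and lists were chosen with earlier results of these data known. Named were all member probes, at most 8 related probes with an unadjusted p under 0.05 and the same direction in all 6 pairs, and the 3 genes most alike to each bright member, and others are marked in the text. The procedure was tested on simulated data. Precision is limited by the number of arrays. Some genes of the cholinergic neuron identity list are not reported here.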

Additional observations from a re-analysis of the deposited data

How the results depend on the processing

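Of the 237 recomputed differences of the 15 single probes (7 members and 8 related), 233 kept their direction and their side of the adjusted threshold, and the lowest adjusted p was 0.0945 (limma, Lypd6b with replicate as a random effect). The 4 that changed sign were Chrm2 with normexp background correction (0.024) and without replicate 6 (0.12), Chrm4 within the scan batch of 3 pairs (0.014) and Lynx1 without replicate 5 (0.13), and the cause was not tested. The 2 member probes with an unadjusted p under 0.05 became 1 with scaling by the 75th percentile, with normexp, with probes well above background on at least 6 arrays (where Chat was not tested), and with the exact signed-rank test, and 1 to 2 when each replicate was left out in turn (1 without replicate 4 or 6). Within the scan batch the count was also 1, but this was Bche, and neither Chrm3 nor Chat was called. Over these omissions the difference ranged from -0.30 to 0.12 for Chrm2, from -0.14 to -0.03 for Chrm4, from 0.11 to 0.27 for Ache and from -0.28 to 0.13 for Lynx1. Without the replicate block, 0 member probes, 0 related probes (8 with it) and 81 of all probes (3956 with it) had an unadjusted p under 0.05. With the block as a random effect 5 probes passed after adjustment, against 0 with the fixed block, none of them a member. Leaving out each replicate gave 2810 to 4161 unadjusted calls over all probes, 7 to 10 among the related probes and 0 adjusted ones. Taking the filter percentile over spots, an alternative chosen after seeing the data, left 22193 probes with 3936 unadjusted calls and 0 adjusted, and 2 member probes. Chrm1, Chrm5, Slc5a7 and 1 Chrm2 probe were limited by signal near background.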
